A study of Homo sapiens with 32 samples.

Results

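A set of 97 genes of a 57773-gene table was described here, chosen because their counts were low after an activating fusion protein was switched on and near their starting level after a repressive fusion protein was switched on. The measure was CPM, a gene's share of all counts of its library scaled to a common total. A gene was taken where its mean CPM in the vehicle libraries of the activating line was at least 30, its ratio of mean CPM in tamoxifen over vehicle was at most 0.25 in that line, and the same ratio lay between 0.67 and 1.5 in the repressive line. Of 2216 genes at that level, 156 met the activating limit and 109 also met the repressive limits. Then 12 were left out by name, either as named cell cycle genes and features or as antisense features. The genes were thus chosen by measured values of the activating and repressive lines, and these values are given without a test. The cells were LNCaP, a prostate cancer line that depends on androgen. Each line was given 2.5 µM tamoxifen or ethanol vehicle for 48 h, with 4 biological replicates in each of 8 groups and 32 libraries in all. The parental line carried no construct, and the other lines carried a MACC, in which the DNA binding domain of the androgen receptor is joined to ERT2, a receptor domain that tamoxifen moves into the nucleus. The neutral MACC carried 3X FLAG and no effector, the repressive MACC carried KRAB and the activating MACC carried VP64. The MACC lines were made by lentivirus and blasticidin selection, so the site and number of insertions are not fixed between lines.

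The androgen receptor is a ligand-driven transcription factor that binds DNA as a dimer and sets both the secretory programme and the growth of luminal prostate cells. KRAB recruits silencing complexes to the DNA it is brought to, and VP64 recruits the general transcription machinery. In these cells the receptor is known to raise some genes and lower others.

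Libraries held 454996 to 1164823 estimated counts, with a median of 669938, so a count of 3, taken as the floor of detection, was worth 2.58 to 6.59 CPM. ESR1, which supplies the ERT2 sequence, averaged 0.517 CPM in parental vehicle libraries and 148, 163 and 172 CPM in the vehicle libraries of the neutral, repressive and activating lines. FKBP5, a classical androgen receptor target, averaged 11.0 CPM under vehicle and 110 CPM under tamoxifen in the activating line, against 9.03 and 1.09 CPM in the repressive line. Of the luminal prostate markers, KLK3 averaged 35.0 CPM and KRT8 1118 CPM in the activating vehicle libraries, and TRPM8 was at 0 there. KRT5 and KRT6A, keratins of basal and stratified epithelium, were at 0 in the vehicle libraries of the activating line and averaged 77.0 and 68.1 CPM after tamoxifen, whereas TP63 was at 0 in all libraries. The summed level of 6 such markers ran from 129 to 158 CPM in the activating tamoxifen libraries and reached at most 4.48 CPM in any library of the other groups. In the activating tamoxifen libraries KRT5 and KRT6A made up all of this sum, with KRT14, KRT15 and LAMB3 also at 0. The sum of 12 luminal markers ran from 7023 to 9647 CPM there, against 1213 to 1785 CPM under vehicle, and that of 7 mesenchymal markers from 10.02 to 23.3 CPM against 41.3 to 90.5 CPM. KRT8, with a mean of 7988 CPM after tamoxifen, made up most of the luminal sum, and the other luminal markers went both ways. FN1, with means of 54.3 CPM under vehicle and 14.1 CPM after tamoxifen, made up most of the mesenchymal sum. Of 5 blood markers 4 were at 0 in every library of each group. Their part in the levels of the 97 genes was not tested.

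The table's names need care. Of the 97, 94 were found in the GENCODE annotation lifted to GRCh37, and 77 of these (81.9%) had exons overlapping an exon on the opposite strand, against 85.8% of all annotated genes at 30 CPM or more. GAPDH, among the most abundant messages of human cells, averaged 65.6 counts per library, and BEST1, which lies opposite the ferritin gene FTH1, averaged 25015, while FTH1 averaged 18.94. The sequencing kit keeps strand, and the strand setting used for counting is not given in the sources used here. The table gives a gene and its opposite-strand partner separate values, but which of them gave the reads under a name was not tested. Each value below belongs to the feature the table names. A role given beside it describes the gene of that name, whose own expression the value may not show. Near-identical copies could also share reads, which bears on BX842568.2 (a processed pseudogene of TFDP1), AC024937.6, DDX11, PTMA and RPLP0.

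An opposite-strand overlap was thus no more common among the 97 than among all annotated genes at 30 CPM or more. Partners are given because which strand gave the reads under a name was not tested. Of the 94, 60 (63.8%) had a protein coding partner, against 70.1% of all genes at that level. Partners had many roles, ARG2 (opposite VTI1B) and DSEL (CTD-2541J13.2) among them. Some are known for the cell cycle or genome copying, which were picked out after the values were seen and whose share among the partners of all genes was not computed, among them FOXM1 (opposite ITFG2), SMC4 (TRIM59), CCNE2 (INTS8), CCNA2 (EXOSC9), PKMYT1 (PAQR4), FANCI (POLG), CENPU (PRIMPOL), CENPO (ADCY3), CENPP (IPPK), TICRR (KIF7), HASPIN (ITGAE), GINS4 (RP11-360L9.7), CDCA7L (DNAH11), CDCA4 (C14orf79), ZWILCH (LCTL), NCAPD3 (JAM3) and GINS2 (GSE1, by 7 bases). RefSeq promoter windows, which span 300 bases around the start site, were matched for 42 of the 60 partners and 61 of the 97 genes. The cell cycle genes homology region (CHR), with the letters TTTGAA on either strand, is an element known from promoters of genes that peak late in the cycle, where it often lies near a CCAAT box. Its letters were in 11 of 42 partner windows (26.2%), in 7 of 61 windows of the selected genes (11.5%) and in 15.4% of all 27305 windows. The sets overlap, since COL18A1, SLC19A1 and CGREF1 are both selected genes and partners, and SLC19A1 is counted in both CHR shares. Both CHR and CCAAT letters, again on either strand, were in 7 of 42 partner windows (16.7%), in 2 of 61 windows of the selected genes (3.28%) and in 6.08% of all windows. The E2F letters TTTNNCGC were in 11.5% of the selected genes' windows, in 7.14% of partner windows and in 6.90% of all. The letters of the canonical androgen response element were in none of either set and in 1 of all 27305 windows, and the single hexamer AGAACA that it repeats was in 6.56% of the selected genes' windows, 7.14% of partner windows and 14.9% of all. These are matches of letters and not measured binding. Shares in windows of the partners of all genes at 30 CPM or more were not computed, and a part of these elements in the levels was not tested.

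Windows of 120 bases upstream of the start site are printed for 4 of the 7 partners that hold both CHR and CCAAT letters. The selected genes that lie opposite are RP11-229P13.23 (SAPCD2), PMCH (PARPBP), CTD-2510F5.4 (PRR11) and RP4-694A7.2 (DEPDC1). These 4 were picked after the values were seen, and each window was placed where it held the most motif letters. Each is read 5′ to 3′ on the strand of the named partner, from RefSeq, and was placed on GRCh37 by exact match. Capitals mark CHR letters (TTTGAA, or TTCAAA on the other strand) and CCAAT letters (or ATTGG).
SAPCD2, chr9:139965017-139965136, minus strand: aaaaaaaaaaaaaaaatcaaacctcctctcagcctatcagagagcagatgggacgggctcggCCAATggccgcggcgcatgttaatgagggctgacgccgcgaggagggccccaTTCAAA
PARPBP, chr12:102513839-102513958, plus strand: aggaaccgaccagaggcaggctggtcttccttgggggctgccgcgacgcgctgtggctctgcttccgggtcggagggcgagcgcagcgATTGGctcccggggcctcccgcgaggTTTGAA
PRR11, chr17:57232982-57233101, plus strand: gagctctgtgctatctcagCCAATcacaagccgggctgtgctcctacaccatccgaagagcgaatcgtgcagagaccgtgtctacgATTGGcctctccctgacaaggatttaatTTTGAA
DEPDC1, chr1:68962787-68962906, minus strand: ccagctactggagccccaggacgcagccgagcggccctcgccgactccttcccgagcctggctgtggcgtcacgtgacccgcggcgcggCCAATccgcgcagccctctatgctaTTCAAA

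In the activating line, tamoxifen to vehicle ratios of the 97 genes ran from 0.0174 to 0.248 with a median of 0.182, where the median of all 2216 genes at 30 CPM or more was 0.714. Together they held 2.37% ± 0.138 (SD, n = 4) of all counts under vehicle and 0.406% ± 0.0183 under tamoxifen, and between 2.41% and 2.69% in the 6 groups of the other lines. Every tamoxifen library lay below every vehicle library for all 97, which the rule nearly fixes (the same held for 44.5% of all genes at that level), and the ratio limit itself was met by 7.04% of them. The share that a few features take moves these ratios: BEST1 held 2.41% of counts under vehicle and 11.3% under tamoxifen in this line. Scaling libraries by TMM, which sets most genes to no change, raised log2 ratios by 0.31 and the median ratio of the 97 to 0.228, and 55 of them then stayed at 0.25 or less. Relative to the median of all genes, the 97 stood at 0.0244 to 0.348 of it without TMM and at 0.0232 to 0.358 with it, and all 97 remained without overlap between treatments. At the limits, ZC3H14 (0.248) and JAM3 (0.247) lay just inside the ratio and HMGN2P46 (0.2502) and IFT20 (0.251) just outside. For the level, TPPP (30.1 CPM) and NXPH4 (30.3 CPM) lay just inside, and LIMK2 (29.2 CPM) just outside. For the repressive ratio, SLC22A2 (0.677), MAP3K13 (0.694), CTD-2541J13.2 (1.41) and CTD-2396E7.10 (1.49) were inside, and RP11-229P13.22 (0.659), PIGH (0.663), B3GALT6 (1.53) and RP11-770G2.5 (1.55) outside.

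**Figure D1:**
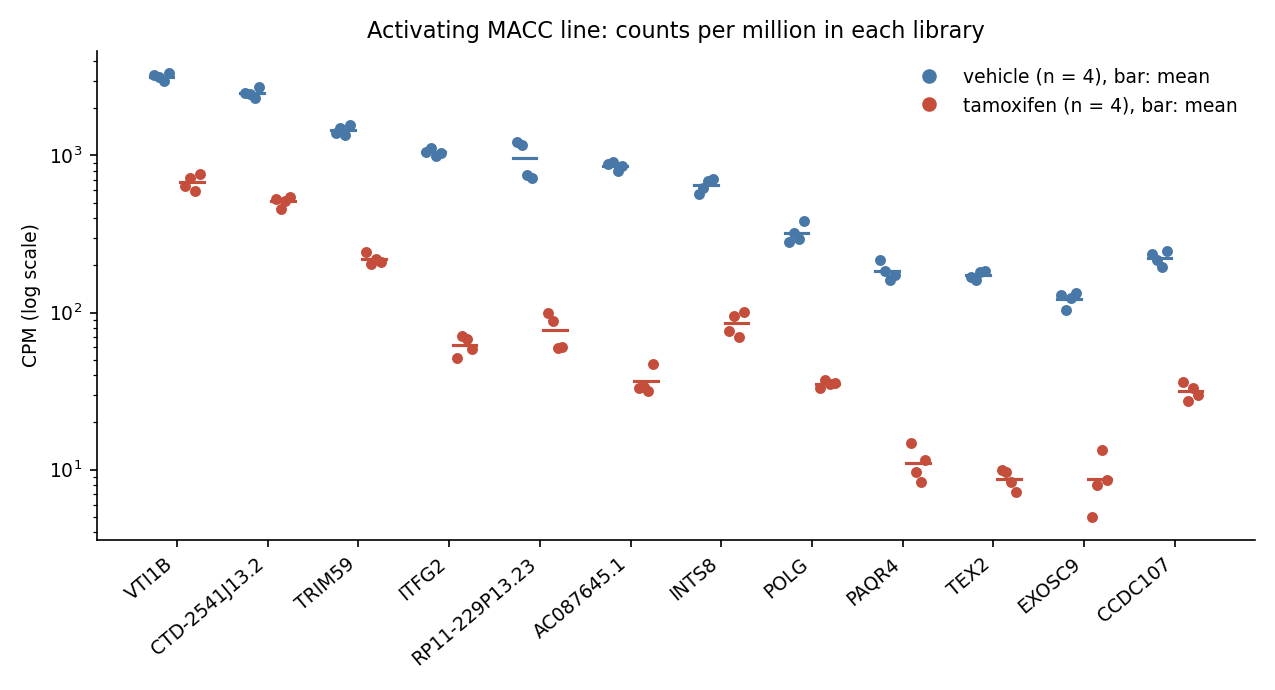
CPM on a log axis in each library of the activating line for 12 of the selected genes, with points for libraries, bars for means of 4, blue for vehicle and red for tamoxifen. VTI1B averaged 3180 CPM under vehicle and 680.5 CPM under tamoxifen, and no red point reaches a blue point of the same gene.

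Library values are given first for selected genes that lie opposite the partners named above. ITFG2, a component of the KICSTOR complex that links nutrients to mTORC1, had 1052, 1124, 997 and 1030 CPM in the vehicle libraries and 51.3, 70.7, 68.2 and 58.7 CPM in the tamoxifen libraries, a ratio of 0.0592. The treatments were far apart and libraries within each were close. PAQR4, a membrane protein of the progestin and adipoQ receptor family, had 215, 183, 162 and 174 CPM and then 14.9, 9.64, 8.32 and 11.5 CPM. Its 522 pooled counts under vehicle and 28 under tamoxifen gave a fold of 16.8 (exact 95% interval 11.5 to 25.5, for counting error only). TRIM59, a RING-type ubiquitin ligase, had 1391, 1494, 1347 and 1553 CPM and then 241, 202, 220 and 209 CPM. INTS8, a subunit of the Integrator complex that processes small nuclear RNAs, had 569, 625.3, 690 and 707 CPM and then 76.1, 94.8, 69.9 and 100.2 CPM. POLG, the catalytic subunit of the mitochondrial DNA polymerase, had 280, 323, 294 and 383 CPM and then 33.1, 37.0, 34.9 and 35.8 CPM. These 3 showed no overlap either, with ratios of 0.151, 0.132 and 0.110. EXOSC9, a core subunit of the RNA exosome, had 130, 104, 124 and 133 CPM and then 4.96, 8.03, 13.3 and 8.59 CPM. PRIMPOL, a primase and polymerase that restarts stalled forks, had 58.2, 55.4, 67.9 and 64.9 CPM and then 6.61, 6.43, 4.99 and 0 CPM. KIF7, a kinesin of the Hedgehog pathway, had the lowest ratio of the 97, at 43.96, 52.6, 41.3 and 49.5 CPM and then 1.65, 1.61, 0 and 0 CPM. Its 131 and 2 pooled counts gave a fold of 58.9 with an exact 95% interval of 15.99 to 492.

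Ratios of partners with enough counts are given beside those of the selected genes, whose low ratios the rule fixes, so the contrast is not read as a result. This covers 18 partners that are not among the 97 and had at least 30 CPM under vehicle. Their ratios in the activating line ran from 0.360 to 2.19 with a median of 0.770, 4 were under 0.5 and 3 were over 1. The median of all genes at 30 CPM or more was 0.714, and leaving out partners among the 97 took out low ratios. CCDC107, a membrane protein of unknown role, had 238, 215, 195 and 248 CPM under vehicle and 36.4, 27.3, 33.3 and 30.1 CPM under tamoxifen. ARHGEF39, a guanine nucleotide exchange factor on its opposite strand, averaged 266 ± 18.8 CPM and 582 ± 27.8 CPM (SD, n = 4), so the pair had ratios of 0.142 and 2.19. ARG2, the mitochondrial arginase opposite VTI1B, averaged 721 ± 50.8 CPM and 832 ± 59.4 CPM. FANCI, a Fanconi anaemia protein opposite POLG, averaged 163 ± 12.1 CPM and 152 ± 16.1 CPM. PKMYT1, the kinase that inhibits CDK1, had a ratio of 0.694 opposite PAQR4 at 0.0603. CENPU, a kinetochore protein opposite PRIMPOL, had a ratio of 0.387, and CCNE2, a G1/S cyclin opposite INTS8, 0.480. The partners of the other selected genes were scarce, with 21 of 60 under 3 CPM in the vehicle libraries, among them DSEL, DEPDC1, PRR11, PARPBP and TICRR. Per kilobase of exon, the selected gene was above its coding partner in 51 of 60 pairs under vehicle, by 41.9 times for ITFG2 over FOXM1 and 89.1 times for TRIM59 over SMC4, while CLCC1 was at 0.172 of GPSM2. The rule asked for 30 CPM under vehicle of the selected gene and not of its partner, which favours this direction. The share over all genes at that level was not computed. In 2 places both strands were selected, COL18A1 with SLC19A1 and CGREF1 with KHK.

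**Figure D2:**
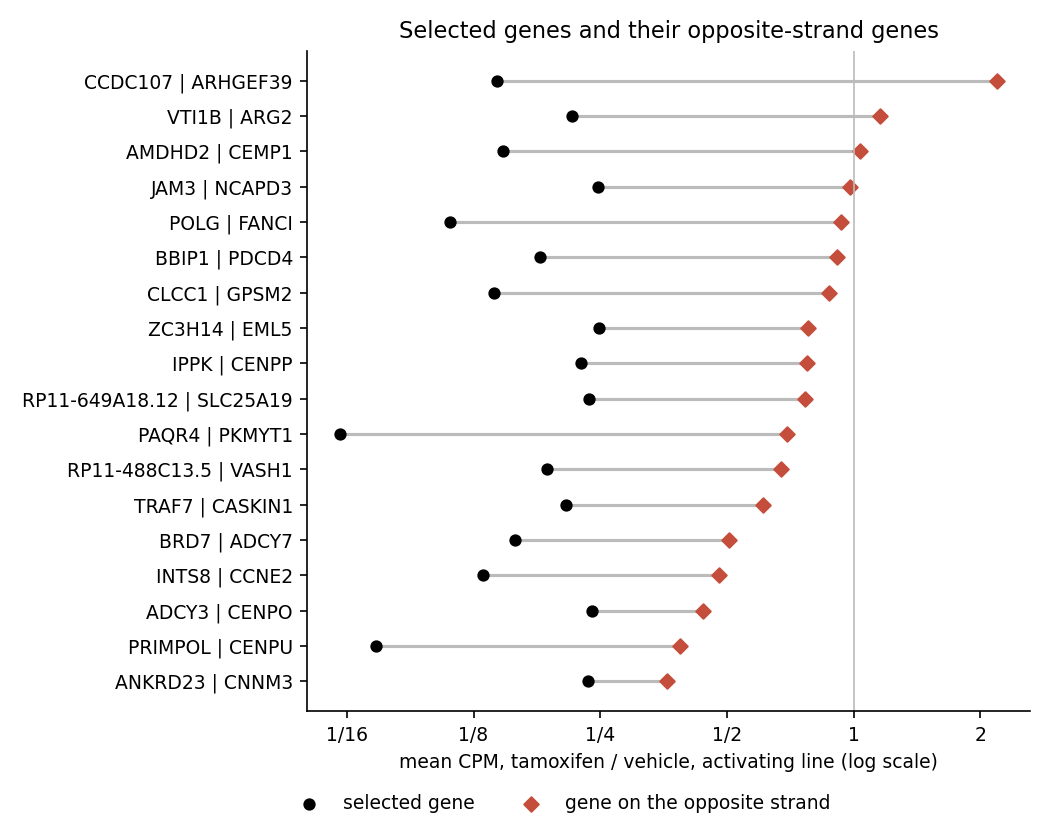
Ratio of mean CPM in tamoxifen over vehicle in the activating line, on a log axis, for 18 pairs of a selected gene (black circle) and a protein coding gene with overlapping exons on the other strand (red diamond). Selected genes lie at 0.248 or less by the rule, and their partners run from 0.360 (CNNM3, opposite ANKRD23) to 2.19 (ARHGEF39).

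Features opposite genes of the S phase and G2/M lists used below were also looked up directly. At 30 CPM or more, 9 features lay opposite a listed gene and 5 had an activating ratio of 0.25 or less, a limit met by 7.04% of all genes at that level. Of these 5, 3 were among the 97 (INTS8, TRIM59 and GSE1), and nothing is read from these counts, since the rule used the ratio. The others at 0.25 or less were ENOSF1 (opposite TYMS, 0.0518) and TMPO-AS1 (opposite TMPO, 0.213), which the rule leaves out by name. AP4M1, opposite MCM7, had a ratio of 0.931, and MRPL51, opposite NCAPD2, had 0.610.

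By role, 5 genes took part in membrane traffic, with vehicle means of 35.9 to 3180 CPM. VTI1B, a SNARE protein of late endosomes on chr14:68113802-68141537, had 3262, 3142, 2966 and 3352 CPM under vehicle and 642, 721, 596 and 763 CPM under tamoxifen in the activating line. MIA3 (TANGO1), which loads collagen at endoplasmic reticulum exit sites, had 374, 362, 379 and 432 CPM and then 97.6, 78.7, 83.2 and 100.2 CPM. VPS9D1, DENND4C and TM9SF1 completed the group, whose ratios ran from 0.137 to 0.239. Of 8 genes for genome copying, cell division and RNA processing, ratios ran from 0.0712 to 0.211. Beside INTS8, POLG, EXOSC9 and PRIMPOL they were ANAPC2 (0.133), a subunit of the anaphase promoting complex, DDX11 (0.125), a helicase of chromatid cohesion, MCM3AP (0.211), which takes part in messenger RNA export, and WRAP53 (0.187), which brings telomerase RNA to Cajal bodies. Chromatin and transcription gave 6 genes with ratios from 0.135 to 0.244. DNMT1, the maintenance DNA methyltransferase, had 47.5, 27.0, 39.8 and 34.2 CPM and then 8.27, 6.43, 6.66 and 7.16 CPM, with no overlap but few counts. The others were PCGF3 (a Polycomb group RING finger protein), PRMT6 (an arginine methyltransferase), BRD7 (a bromodomain subunit of a SWI/SNF complex), MAML1 (a Notch coactivator) and NFIX (a nuclear factor I protein).

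Among 8 genes of adhesion, matrix and cytoskeleton the ratios ran from 0.0174 (KIF7) to 0.247 (JAM3), with DNAH11, an axonemal dynein, at 0.0803, the integrin ITGAE at 0.0645, the cadherin CDH13 at 0.0648, the collagen COL18A1 at 0.156, and MYH11 and TPPP within that range. For transporters and channels, 7 genes spanned 0.0816 to 0.246, namely SLC19A1 (the reduced folate carrier), SLC4A5, SLC22A2, ATP8B4 (a phospholipid flippase), CLCC1, GRIN1 (an NMDA receptor subunit) and CACNA1D (an L-type calcium channel). The 7 signalling genes, TRIM59, ADCY3 (an adenylyl cyclase), S1PR3 (a sphingosine 1-phosphate receptor), TRAF7, MAP3K13, UTS2 and PMCH (precursors of urotensin and of melanin-concentrating hormone), spanned 0.116 to 0.244. Metabolic enzymes were SHMT2 (mitochondrial serine hydroxymethyltransferase), KHK (ketohexokinase), AMDHD2, IPPK and LCTL, at 0.147 to 0.237. Translation gave EEF1A2 (0.200) and RPLP0 (0.217). The remaining 21 protein coding genes spanned 0.0505 to 0.248. TEX2, a lipid transfer protein of the endoplasmic reticulum with no partner, was the lowest of them and had 168, 161, 181 and 185 CPM and then 9.92, 9.64, 8.32 and 7.16 CPM. ITFG2, AIDA, BBIP1, CCDC107, PAQR4, PTMA, NTPCR, FRMD8, C14orf79, RNH1, GSE1, VSIG10, CGREF1, ANKRD23, TANC2, ZC3H14, LY6K, MFSD12, LIMD1 and NXPH4 made up the rest.

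Another 28 were non-coding, pseudogenes or not in the annotation, with ratios from 0.0423 to 0.247. AC087645.1 was the lowest, with 889, 910, 792 and 854 CPM under vehicle and 33.1, 33.7, 31.6 and 47.3 CPM under tamoxifen, a fold of 23.5 from 2425 and 93 pooled counts (exact 95% interval 19.1 to 29.2). It was not found in the annotation, so no partner was assigned, as with RP11-73M18.9 (0.0792) and CTB-58E17.9 (0.241). RP11-229P13.23, opposite SAPCD2, had 1221, 1171, 748 and 719 CPM and then 99.2, 88.4, 59.9 and 60.1 CPM, so replicates 1 and 2 stood above replicates 3 and 4 under both treatments. CTD-2541J13.2, opposite DSEL, had 2483, 2469, 2329 and 2740 CPM and then 531, 458, 511 and 543 CPM. BX842568.2 had 98.6, 117, 87.0 and 113 CPM and then 4.96, 3.21, 1.66 and 10.0 CPM. CTD-2510F5.4 (0.0639) and RP4-694A7.2 (0.0697) rested on 7 and 6 pooled tamoxifen counts, and their folds had exact 95% intervals of 7.32 to 39.5 and 6.38 to 40.2. RP11-299G20.2, RP11-360L9.7, RP11-649A18.12, RP1-20B21.4, AP001469.9, CTB-55O6.12, RP11-517C16.2, CTB-92J24.3, CTD-2396E7.10, AC022007.5, RP11-424N24.2, AC092535.3, CTD-3222D19.7, RP11-388M20.6, RP11-161H23.9, AC024937.6, RP11-488C13.5, CTD-2562J17.7, RP11-465B22.3 and RP11-656D10.6 lay between 0.123 and 0.247. Depth limits these ratios: 38 of the 97 had 10 or more counts in every activating tamoxifen library, 8 had a 0 in at least 1, and 4 had 3 counts or fewer in all.

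In the repressive line the 97 had ratios from 0.677 to 1.49 with a median of 0.947, inside the limits of the rule, and all genes at that level had a median of 0.933. In the neutral line, which the rule did not use, the median was 0.876, with a range from 0.441 (MFSD12) to 2.14 (BX842568.2), against a median of 0.915 for all genes. In the parental line it was 1.01, with a range from 0.705 (CTD-2510F5.4) to 1.71 (PRMT6), against 1.004. Vehicle levels of the 97 relative to the activating line had medians of 0.999 in the neutral line, 1.01 in the repressive line and 0.885 in the parental line, and 17 of the 97 were under 0.67 in the parental line, 0 in the other 2. The same counts over all genes at that level were not computed.

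**Figure D3:**
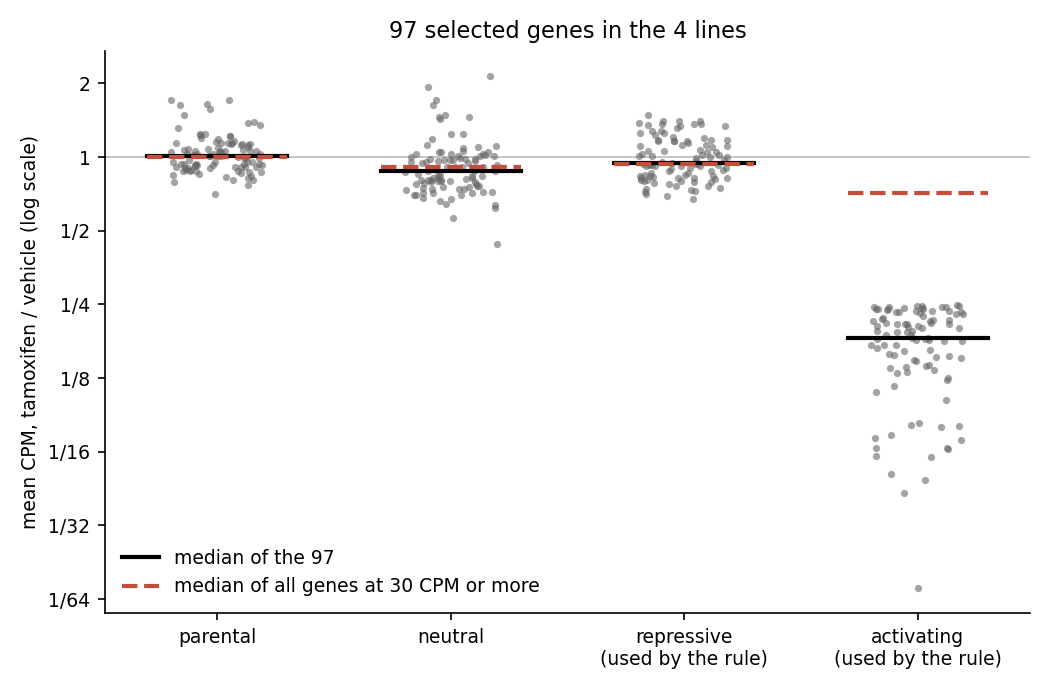
Ratio of mean CPM in tamoxifen over vehicle, on a log axis, with a point for each of the 97 genes in each line, a black line at their median and a red dashed line at the median of all 2216 genes at 30 CPM or more. The median of the 97 is 1.01 in the parental line, 0.876 in the neutral, 0.947 in the repressive and 0.182 in the activating line, and the latter pair of lines was used to choose the genes.

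The neutral line asks whether the genes move when a MACC without an effector is induced. Of 3985 genes tested, 188 (4.72%; 2.61% higher and 2.11% lower) passed in edgeR's quasi-likelihood test, and of the 97, 7 did, 6 higher and 1 lower. At 30 CPM or more the share of all genes was 7.31% (4.06% higher, 3.25% lower), so the total of 7 is near the background. Neutral tamoxifen replicate 1, with 1164808 rounded counts and a TMM factor of 0.807, held the lowest CPM of its group for 71 of the 97 and for 64.2% of all genes at that level. The median ratio of the 97 was 0.907 without it, against 0.960 for all genes.

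MIA3 and AIDA, neighbours on chromosome 1 (MIA3 at 222791439-222841349, plus strand, and AIDA at 222841355-222886552, minus strand, in GRCh37), rose together. MIA3 had 378, 394, 428 and 420 CPM under vehicle and 644, 814, 835 and 827 CPM under tamoxifen in the neutral line, a log2 fold change of 1.07 ± 0.07 (SE, adjusted p = 3.44e-09 from edgeR). AIDA, an inhibitor of axin-driven JNK signalling, had 739, 781, 740 and 825 CPM and then 1160, 1421, 1359 and 1335 CPM, a change of 0.91 ± 0.07 (adjusted p = 8.83e-09 from edgeR). In both genes every tamoxifen library lay above every vehicle library. BX842568.2 had 89.2, 106, 85.3 and 91.1 CPM and then 173, 206, 232 and 185 CPM (1.23 ± 0.12, adjusted p = 1.72e-06 from edgeR). CTD-2541J13.2 had 2508, 2544, 2717 and 2638 CPM and then 2874, 4012, 4058 and 4208 CPM (0.66 ± 0.06, adjusted p = 2.53e-07 from edgeR). VTI1B had 3375, 3455, 3502 and 3549 CPM and then 3464, 4518, 4340 and 4949 CPM (0.44 ± 0.05, adjusted p = 3.16e-05 from edgeR), and here replicate 1 under tamoxifen lay inside the vehicle range. The calls of these 5 held with any 1 library left out.

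The other calls were weaker. TANC2, a scaffold protein of synapses, had 31.97, 35.8, 41.3 and 49.4 CPM and then 52.4, 54.8, 60.2 and 64.3 CPM, with no overlap (0.68 ± 0.19, adjusted p = 0.0445 from edgeR). Its adjusted p rose to at most 0.120 with 1 library left out, and the call was lost without any of tamoxifen replicates 1 to 3 or vehicle replicates 1 to 3. CACNA1D had 217, 219, 153 and 204 CPM and then 106, 130, 132 and 142 CPM, again with no overlap (-0.51 ± 0.12, adjusted p = 0.0155 from edgeR), and its call was lost without tamoxifen replicate 3 or vehicle replicate 1, 2 or 4 (highest adjusted p 0.100). Without tamoxifen replicate 4, 18 of the 97 were called, 10 higher and 8 lower, as the count over all genes rose to 415. Over the 97 the median log2 fold change was -0.07, and -0.00 over all genes tested.

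**Figure D4:**
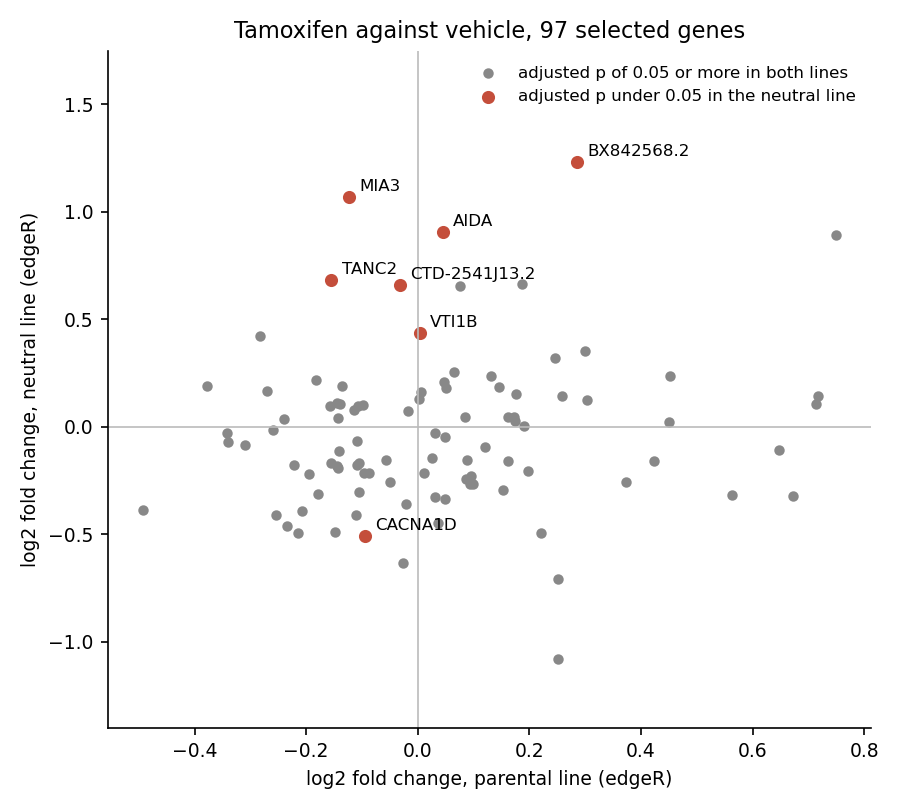
Log2 fold change of tamoxifen against vehicle for each of the 97 genes in the parental line (horizontal) and in the neutral line (vertical), with the 7 that passed edgeR's test in the neutral line in red and named. The red genes lie between -0.51 and 1.23 on the vertical axis, and none passed in the parental line.

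The parental line asks whether tamoxifen alone moves them. Of all genes tested 0 passed (0%) and so did 0 of the 97. By unadjusted p under 0.05 there were 7 of 97, against 7.68% of all genes, and DESeq2 also called 0, while edgeR called 32 genes with a replicate block, 24 with no filter on low counts and 3 without vehicle replicate 1. PRMT6 had the smallest p of the 97, with 49.6, 135, 116 and 149 CPM under vehicle and 158, 190, 203 and 218 CPM under tamoxifen (0.75 ± 0.22, adjusted p = 0.458 from edgeR). Vehicle replicate 1 was low and the groups did not overlap, and PRMT6 was the 1 gene of the 97 called with the block and with no filter.

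Whether the neutral and parental responses differ was tested as an interaction over 16 libraries. Of 3985 genes 59 passed (1.48%, with 0.853% higher and 0.627% lower; 2.53% at 30 CPM or more), and 5 of the 97 did, all with the higher response in the neutral line. They were MIA3 (1.22 ± 0.11, adjusted p = 4.56e-09), AIDA (0.88 ± 0.10, adjusted p = 1.82e-07), CTD-2541J13.2 (0.72 ± 0.10, adjusted p = 2.38e-05), BX842568.2 (0.97 ± 0.18, adjusted p = 0.00311) and VTI1B (0.46 ± 0.09, adjusted p = 0.00634), all from edgeR. In the parental line MIA3 had 591, 588, 580 and 535 CPM under vehicle and 558, 547, 494 and 526 CPM under tamoxifen, which overlap. AIDA had 779, 990, 826 and 899 CPM and then 931, 946, 841 and 914 CPM, also overlapping. These same 5 genes had ratios of 0.0479 to 0.232 in the activating line and of 1.11 to 1.41 in the repressive line, both of which the rule used.

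**Figure D5:**
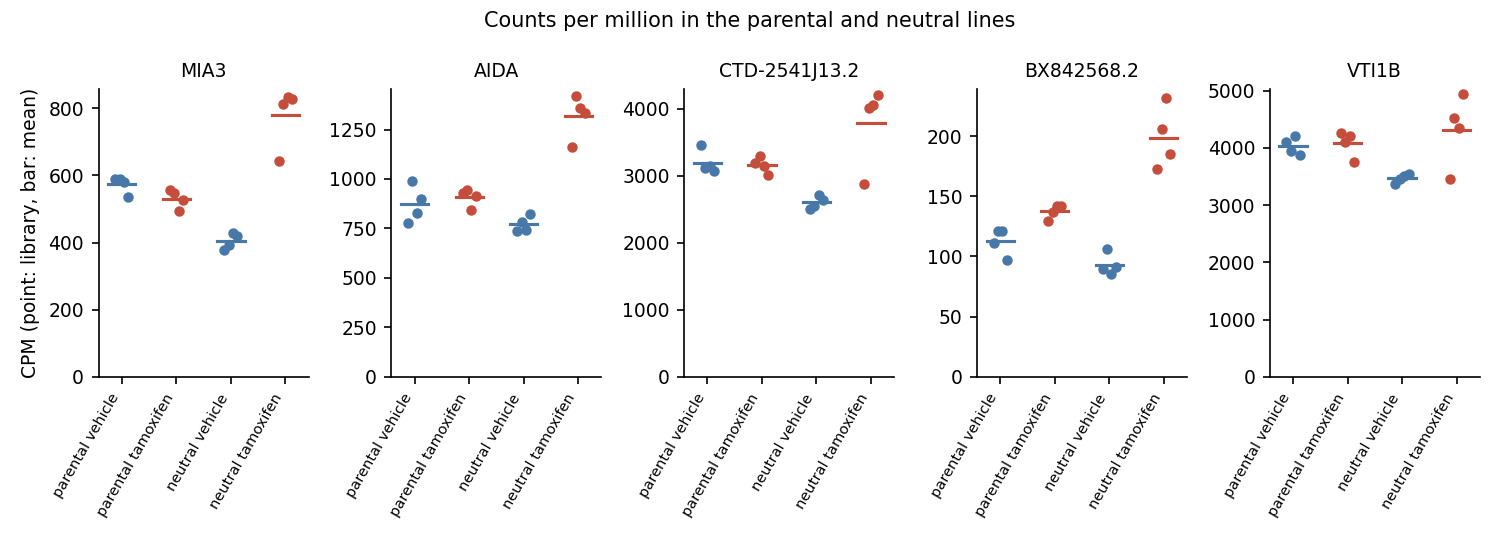
CPM from 0 in each parental and neutral library for the 5 genes whose response differed between the lines, with blue for vehicle, red for tamoxifen and bars for means of 4. Parental points overlap between treatments except for BX842568.2, and neutral tamoxifen points lie above neutral vehicle points except 1 library of VTI1B.

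Carrying the neutral construct, without induction, went with other levels for a part of the set. The 30 CPM limit was set in vehicle libraries of the activating line, which is also a MACC line. That limit favours genes with higher levels in MACC lines than in the parental line, among the 97 and among all genes at that level. Against the parental vehicle libraries, 388 of 3985 genes (9.74%; 4.02% higher, 5.72% lower) passed in edgeR, and 342 of 2216 (15.4%; 5.96% higher, 9.48% lower) at 30 CPM or more. Of the 97, 25 passed, 15 higher and 10 lower in the neutral line, with 18 left in a fit with the replicate number as a block. Higher were PCGF3 (0.66 ± 0.09, adjusted p = 4.1e-06 from edgeR), CTD-2396E7.10, ANAPC2, AMDHD2, DNAH11, SHMT2, NXPH4, BRD7, AP001469.9, RP11-517C16.2, VSIG10, MFSD12, RP11-465B22.3, TRAF7 and FRMD8, by 0.44 to 1.32 on the log2 scale. SHMT2 and its chromosome 12 neighbour NXPH4, a neurexophilin, differed by 1.26 ± 0.28 and 1.29 ± 0.29. SHMT2 had 16.5, 17.3, 19.8 and 17.93 CPM in parental vehicle libraries and 54.6, 39.9, 52.0 and 29.1 CPM in neutral vehicle libraries, with no overlap. Lower were INTS8 (-0.62 ± 0.09, adjusted p = 1.26e-05 from edgeR), MIA3, AC087645.1, S1PR3, COL18A1, CTD-2541J13.2, JAM3, BBIP1, EXOSC9 and VTI1B, by -0.25 to -0.97. INTS8 had 953, 843, 974 and 961 CPM in parental and 607, 610, 615 and 649 CPM in neutral vehicle libraries, and the groups were well apart. Calls lost with 1 library left out were FRMD8 (without any but parental replicate 1), VTI1B (without any neutral replicate or parental 3), MFSD12 (neutral 1 or 2, parental 2 or 3), TRAF7 (neutral 1 or 3, parental 2), VSIG10 (neutral 2, parental 2 or 3), RP11-465B22.3 (neutral 4, parental 3) and EXOSC9 (parental 3), and the block lost these 7 as well. MIA3, CTD-2541J13.2 and VTI1B, lower here, are among the genes that rose with tamoxifen in the neutral line. Each line is 1 selected culture, so the construct and the line's own history cannot be told apart.

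Genes of related pathways that are not among the 97 were tested in the activating line, where 1786 of 3985 (44.8%) passed in edgeR. In the S phase and DNA synthesis list, 9 of 47 genes in the table could be tested, 1 rose, 3 fell and 5 did not pass, with a median log2 change of -0.57 against -0.09 for all genes. FEN1, the flap endonuclease of lagging strand synthesis, rose from 59.5 ± 12.6 to 235 ± 34.8 CPM (2.42 ± 0.14 on the log2 scale), and MCM3, TYMS and CCNE2 fell by 1.74, 1.31 and 0.60. In the G2/M list 8 were tested, 6 fell and 2 did not pass, with a median of -2.25. MKI67, the proliferation marker, averaged 17.3 ± 4.25 CPM and then 0.358 ± 0.716 CPM, TMPO 72.5 ± 18.6 and then 3.58 ± 1.61, HMGB2 35.8 ± 7.96 and then 2.06 ± 2.10, and TACC3 12.8 ± 4.90 and then 1.49 ± 2.03. These 4 are genes that the rule leaves out by name. So are another of the 6 genes that fell and a gene of this list that did not pass. The direction of all of these was known beforehand, and the median of this list rests mostly on them. Among 12 chromatin assembly genes 5 fell, led by H2AFX (-3.22), CHAF1A (-2.14), HMGN2 (-1.82) and DEK (-1.55), 1 rose and 6 did not pass (median -1.11). Among 12 ribosome biogenesis genes 2 rose, led by RRP12 (1.49), 3 fell, NPM1 (-1.33), NCL (-1.14) and POLR1C (-1.08), and 7 did not pass (median -0.19). Of 12 androgen receptor targets 7 rose, led by FKBP5 (3.69) and PMEPA1 (1.93), 2 fell, among them SLC45A3 (-1.68), and 3 did not pass (median 0.55). Rises and falls of list genes are on the TMM scale. In the ribosome biogenesis and androgen receptor lists, a gene counted as risen had a lower mean CPM under tamoxifen than under vehicle. Adjusted p-values of the named list genes were 0.0440 or less. No list gene was among the 97. As above, each value belongs to the feature of that name, and the strand of its reads was not tested.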

How the data were processed

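RNA was sequenced from 32 LNCaP libraries with a stranded mRNA kit. The authors processed reads with nf-core/rnaseq on GRCh37 and Salmon 1.9.0, and deposited estimated counts per gene without normalization. The annotation release and the strand setting are not given in the sources used here, and DESeq2 1.28.0 is in the submitters' processing notes. Estimated counts were rounded here. CPM used column sums. The 97 genes and the gene lists were chosen with earlier results of these data known. Every member is named, with opposite-strand partners, the 2 genes on the outer side of each limit, at most 4 non-member genes per list that passed in the activating line, by size of change, and FKBP5 and ESR1 as checks; a few genes this rule names are not reported here; promoters shown, members shown by library and role groups were chosen after their values were seen.

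Tests used edgeR 4.0.16 (R 4.3.3) on the whole table: filterByExpr over 8 groups left 3985 genes, all 97 included, with TMM scaling, glmQLFit, glmQLFTest and Benjamini-Hochberg adjustment at 0.05. Each fit held only the groups compared, 8 libraries, or 16 for the interaction. SE is the fold change over the root of F. Members of the activating and repressive contrasts got no test. On simulated counts for the neutral comparison over 3985 genes, 148 of 200 changed genes were called (54 of 100 at 2-fold and 94 of 100 at 4-fold), with 9 false calls and 0 in the wrong direction. The simulation gave all genes the same dispersion, held no outlying library and left the scarcest genes unchanged. Its shares thus check the code and need not hold for the measured libraries. Fold intervals from pooled counts are exact at 95% and, like the floor of 3 counts, cover counting error only. Over 48 replicate pairs the chi-square per gene was 1.45 to 25.8 with a median of 2.29, so no pair was a duplicate. The highest values, 17.1, 19.4 and 25.8, were those of neutral tamoxifen replicate 1 against the other libraries of its group. Replicates are labelled biological, and p-values measure the spread between these cultures. Deviations of same-numbered libraries had correlations of -0.01 to 0.15 in the neutral line, -0.03 to 0.18 in the parental line and -0.22 to 0.02 between the vehicle groups, not all over 0.1, so the numbers were not taken as pairs. Alternatives were DESeq2 1.42.0 (a Wald test and its size factors), no count filter, a replicate block, and leaving out each library; for membership, TMM-scaled CPM and leaving out each library. Gene positions are from GENCODE lifted to GRCh37.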

Additional observations from a re-analysis of the deposited data

Results flagged for a closer look

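Of 160 groups of 4 libraries examined over 20 of the genes, 8 held a library whose gap to the others exceeded Dixon's 95% limit, and chance alone flags about 1 in 20. In the neutral tamoxifen group replicate 1 was low for CTD-2541J13.2 (2874 CPM, others 4012 to 4208) and MIA3 (644 CPM, others 814 to 835), and replicate 4 was low for RP11-229P13.23 (531 CPM, others 857 to 896). In the neutral vehicle group replicate 1 was high for PAQR4 (202 CPM, others 154 to 162). In the parental vehicle group replicate 2 was low for INTS8 (843 CPM, others 953 to 974) and high for KIF7 (44.99 CPM, others 21.98 to 25.4). INTS8 was also high in repressive vehicle replicate 3 (861 CPM, others 721 to 740), and AC087645.1 in activating tamoxifen replicate 4 (47.3 CPM, others 31.6 to 33.7).

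The response to tamoxifen differed between the neutral and the parental line, by the interaction term in edgeR, for MIA3 (1.22), AIDA (0.88), CTD-2541J13.2 (0.72), BX842568.2 (0.97) and VTI1B (0.46, all log2 differences, neutral minus parental).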

How the results depend on the processing

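The set itself depends on scaling: with TMM-scaled CPM the rule gave 50 genes, 47 of them among the 97, and with 1 library left out it gave 89 to 107, of which 85 to 97 were shared. For tamoxifen in the neutral line 188 genes were called, and 105 to 415 with 1 library left out (lowest without tamoxifen replicate 3, highest without tamoxifen replicate 4), of which 5 to 18 were among the 97. In the parental line 0 were called, with 0 to 3 when 1 library was left out (3 without vehicle replicate 1), 24 with no filter on low counts and 32 with a replicate block, with PRMT6 the 1 of the 97 called in each of the latter. The neutral against parental vehicle comparison gave 388, and 202 to 517 with 1 library left out, falling by over 1.5 times without neutral vehicle replicate 2 (215) or 4 (241) or parental vehicle replicate 3 (202), and 208 with a replicate block. The interaction gave 59, and 34 to 70 with 1 library left out (37 without neutral vehicle replicate 1, 34 without neutral vehicle replicate 2 or parental tamoxifen replicate 4). In the activating line 1608 to 1717 were called with 1 library left out, and in the repressive line 534 to 729, with 454 by the DESeq2 Wald test against 709. The causes were not tested. The replicate block gave 253 calls in the neutral line, 12 of them among the 97, and 49 in the interaction.

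All 37 member calls kept their direction in every alternative that gave a value. The 5 interaction calls held in all 16 runs with 1 library left out. In the vehicle comparison having no filter lost FRMD8 and VTI1B, the block lost EXOSC9, FRMD8, MFSD12, RP11-465B22.3, TRAF7, VSIG10 and VTI1B, and DESeq2 lost FRMD8 and TRAF7 and gave no adjusted p for MFSD12. DESeq2 also lost TANC2 in the neutral line and gave no adjusted p for BX842568.2 in the interaction. Depth limits the low ratios: 59 of the 97 had under 10 counts in at least 1 activating tamoxifen library.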
